A study of Caenorhabditis elegans with 22 samples.

Results

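The aspartyl and cysteine proteases described here are the Caenorhabditis elegans genes whose annotated symbol begins with asp-, cpr-, cpl- or cpz- and ends in a number. The symbol alone decided which genes belong, although the family itself was chosen with earlier results of these data known. Of 17118 genes with a probe set on the array, 26 carried such a symbol, and they comprised 15 aspartyl protease genes (asp) and 11 cysteine protease genes, of which 8 were cpr, 1 was cpl and 2 were cpz. The genes asp-2, asp-16 and asp-18 bear such a symbol in the RefSeq annotation and were not analysed here. Of the 26 genes, 20 gave a signal high enough to be tested, 10 in each family.

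The study measured RNA from whole hermaphrodites of the Bristol N2 background, harvested as young adults after a timed egg lay, on 22 Affymetrix arrays. Untreated wild type had 4 arrays, and the other 6 groups had 3 each. These were the respiratory chain mutants isp-1(qm150) and nuo-6(qm200), wild type treated with 0.1 mM paraquat, the ced-4(n1162) mutant, and the double mutants isp-1(qm150) ced-4(n1162) and nuo-6(qm200); ced-4(n1162). ISP-1 is the iron-sulfur protein of respiratory complex III, NUO-6 is a subunit of complex I, paraquat is a redox-cycling compound that makes superoxide, and CED-4 is an apoptotic adaptor protein upstream of the caspase CED-3. The mutants carry their alleles in every cell, and the labels name 1 allele per gene. The length of the paraquat exposure is not given in the sources used here. The study asked for an expression pattern shared by both respiratory chain mutants and paraquat, and the double mutants place each respiratory chain mutation on the ced-4 background. The labels call the replicates biological without stating that each was a culture of its own, and the p-values reflect no more than the spread among these arrays, which may be technical.

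Aspartyl proteases of this family resemble cathepsin D and pepsin, and the cysteine proteases resemble cathepsins B (cpr), L (cpl) and Z (cpz). Both kinds are made as inactive precursors and are activated in acidic compartments, above all the lysosome, whose pH is set by the vacuolar proton pump (V-ATPase). In the worm, part of the family is made in the intestine, where it serves to digest bacteria and to turn over yolk and cell debris, and other members act in embryos, in molting or in dying neurons. A whole worm is a mixture of tissues, so a lower value from fewer cells of a type cannot be told apart from less RNA per cell.

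Values are on the log2 scale, so a difference of 1 is a change of the signal by a factor of 2. Within groups, the median SD over probe sets ranged from 0.124 in ced-4 to 0.298 in wild type. The ced-4 transcript was 7.62 ± 0.26 (SD, n = 4) in wild type and 5.72 ± 0.15 (n = 3) in ced-4, a fall of 1.89 (limma adjusted p = 8.23e-08), and it fell by 1.87 in isp-1 ced-4 relative to isp-1 and by 2.50 in nuo-6 ced-4 relative to nuo-6. The isp-1 and nuo-6 transcripts do not check the labels of their mutants. Over the tested probe sets, the correlation of isp-1 replicate 1 was 0.9927 with nuo-6 replicate 1 and 0.9759 and 0.9673 with the other isp-1 arrays. That of isp-1 ced-4 replicate 1 was 0.9728 with isp-1 replicate 3 and 0.9738 and 0.9633 with the other isp-1 ced-4 arrays. Wild type replicate 3 was the highest wild type array for 12 of the 20 tested protease genes. Where leaving out isp-1 replicate 1 or wild type replicate 3 changed a call, the value without that array is given, for cpr-9 as a count of lost calls. Small differences without a call could also change their sign without 1 of these arrays, and not all of those are given.

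Among the 20 tested genes, 16 changed in at least 1 of 8 pairwise comparisons at an adjusted p under 0.05 in limma. The share of all tested genes with a call in at least 1 of the 8, and their ranges of group means, were not computed. Single comparisons called from 14.9% to 52.1% of all tested genes. The count of 16 is therefore not read as particular to the family. The 4 genes with no call were asp-1, asp-6, asp-12 and cpz-2. The group means of 11 genes lay within 1 log2 unit of each other, while those of 7 genes spanned at least 2. The family therefore did not move as a block, and the larger differences came from asp-8, asp-12, asp-14 and asp-17 among the aspartyl genes and cpr-1, cpr-3 and cpr-8 among the cysteine genes.

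In isp-1, asp-8, cpr-3 and cpr-8 rose and cpr-1 and cpr-9 fell against wild type, 5 of 20 genes where 23.3% of all tested genes were called, 13% higher and 10.3% lower. In nuo-6, asp-4, asp-8, asp-13, cpr-3 and cpr-8 rose and asp-14 and cpr-9 fell, 7 of 20 against 33.9% of all tested genes (18.2% higher, 15.7% lower). With paraquat, asp-17 rose and asp-5, asp-8, asp-13, cpr-5, cpr-8 and cpz-1 fell, 7 of 20 against 42.1% (25.9% higher, 16.2% lower). In ced-4, asp-17 rose and cpr-5, cpr-8 and cpr-9 fell, 4 of 20 against 14.9% (7.02% higher, 7.87% lower). These shares are near or below those of all tested genes in the first 3 comparisons. In ced-4 the share was 20% beside 14.9%, and it rested on few calls. When any 1 ced-4 array was left out, 2 protease genes were called there. With only the compared groups in the model, 1 was called. The ced-4 share is therefore not read as particular to the family. The median difference of the 20 genes was 0.02 in isp-1, 0.15 in nuo-6, -0.17 with paraquat and -0.02 in ced-4, beside 0.05, 0.03, 0.10 and -0.04 for all tested genes. The 3 mutants and the paraquat group share the wild type arrays.

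**Figure D1:**
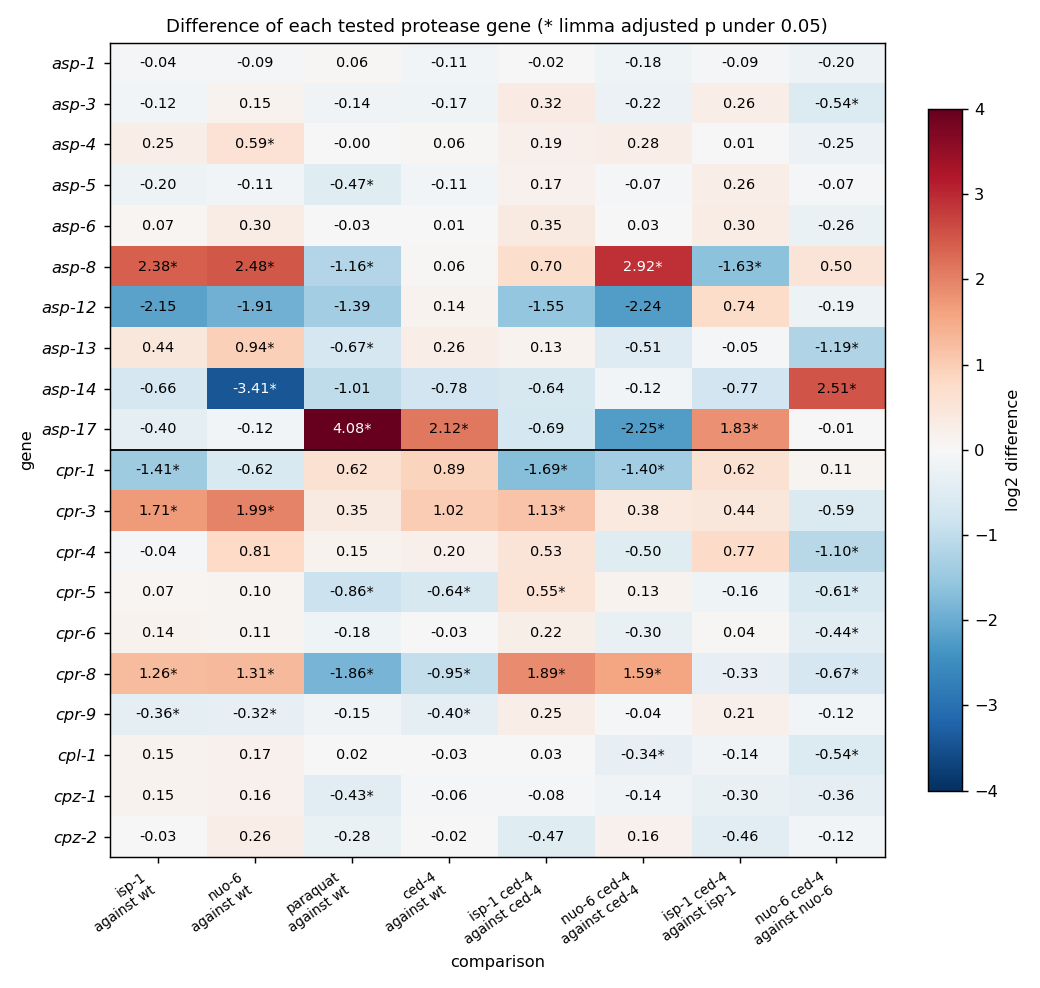
Log2 difference of the 20 tested protease genes (rows, aspartyl above the line and cysteine below it) in 8 comparisons (columns), with red for higher, blue for lower and an asterisk for a limma adjusted p under 0.05. The rows of asp-8 and cpr-8 are red for isp-1 and nuo-6 and blue for paraquat, and asp-1 stays between -0.20 and 0.06 throughout.

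The aspartyl protease gene asp-8 (F59D6.3, chromosome V) had among the widest ranges of the family. In wild type its values were 7.51, 7.95, 8.26 and 7.59, in isp-1 10, 10.35 and 10.29, and in nuo-6 9.93, 11.04 and 9.95. Every array of either mutant lay above every wild type array. The rise was 2.38 (SE 0.31, 5.22-fold, limma adjusted p = 6.43e-05) in isp-1 and 2.48 (5.56-fold, adjusted p = 2.22e-05) in nuo-6. With paraquat the values were 6.86, 6.78 and 6.36, all below wild type, a fall of 1.16 (adjusted p = 0.00589). These 3 calls held in every alternative that was tried.

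On the ced-4 background asp-8 separated the respiratory chain mutants. The ced-4 arrays read 7.82, 7.88 and 7.96, within the wild type range, and nuo-6 ced-4 read 10.92, 10.68 and 10.81, all far above them. The rise in nuo-6 ced-4 relative to ced-4 was 2.92 (adjusted p = 1.13e-05). In isp-1 ced-4 the arrays read 7.61, 9.03 and 9.12, so that 1 array lay below ced-4 and the others above it. The difference from ced-4 was 0.70 (adjusted p = 0.0866), and 1.19 (adjusted p = 0.00197) without isp-1 ced-4 replicate 1. Against isp-1, asp-8 fell by 1.63 in the double mutant (adjusted p = 0.00167) with no overlap of arrays. The interaction of isp-1 with ced-4, which is the effect of isp-1 on the ced-4 background minus its effect in wild type, was -1.68 (SE 0.46, adjusted p = 0.0179). Over 21 alternatives that interaction ran from -1.95 to -1.19, and it was called in each. The interaction of nuo-6 with ced-4 was 0.44 (adjusted p = 0.589).

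asp-17 (Y39B6A.24, chromosome V) was low except with paraquat and in part of the ced-4 groups. Its values were 3.51, 2.73, 2.72 and 2.70 in wild type and 6.43, 7.04 and 7.52 with paraquat. The difference was 4.08 (SE 0.36, adjusted p = 5.45e-07). Its values were at or above the table median of 3.68 on the paraquat, ced-4 and isp-1 ced-4 arrays and on no other array. It was therefore tested only because those groups were high, and the size of every difference of this gene that involves another group is uncertain. In isp-1 the values were 3.43, 2.16 and 1.96, and in nuo-6 3.09, 2.31 and 3.00, which overlap wild type.

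The ced-4 arrays read 4.83, 5.16 and 5.12 for asp-17, all above wild type and all below paraquat, a rise of 2.12 over wild type (adjusted p = 0.000457). The isp-1 ced-4 arrays, at 3.86, 3.96 and 5.22, were above isp-1 by 1.83 (adjusted p = 0.00208, and 0.0563 when the model held only those groups). The nuo-6 ced-4 arrays, at 2.79, 2.81 and 2.75, were at the wild type level. There asp-17 was below ced-4 by 2.25 (adjusted p = 0.000624), and the interaction of nuo-6 with ced-4 was -2.13 (adjusted p = 0.0184).

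asp-14 (K10C2.3, chromosome X) fell in nuo-6. Wild type read 10.83, 10.72, 10.39 and 11.36, and nuo-6 read 8.20, 6.73 and 7.32, with no overlap. The fall was 3.41 (SE 0.61, 10.6-fold, adjusted p = 0.000481). In isp-1 the arrays read 7.67, 11.38 and 11.46. Replicate 1 lay inside the nuo-6 range and the other isp-1 arrays above every wild type array.

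The isp-1 mean of asp-14, 10.17 ± 2.16 (SD, n = 3), was therefore set by 1 array, the one that correlated most with nuo-6 replicate 1. Against wild type the difference was -0.66 with all arrays and 0.59 without replicate 1, and neither passed the test (adjusted p = 0.467 and 0.165). Between nuo-6 and isp-1 it was -2.75 (adjusted p = 0.156), and -4.0 (adjusted p = 4.94e-07) without isp-1 replicate 1. In isp-1 ced-4 the values were 9.48, 9.10 and 9.62, and the difference from isp-1 was -0.77 with all arrays and -2.02 (adjusted p = 0.000465) without isp-1 replicate 1. In ced-4 the values were 9.94, 10.12 and 10.08, and in nuo-6 ced-4 they were 9.93, 9.95 and 9.90.

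Thus asp-14 was higher in nuo-6 ced-4 than in nuo-6 by 2.51 (adjusted p = 0.00727), with no overlap. The interaction of nuo-6 with ced-4 was 3.29 (SE 0.89, adjusted p = 0.0252). This interaction call was lost in 8 of 21 alternatives, among them the fit with the replicate number as a block (3.11, adjusted p = 0.0634), while the value stayed between 2.95 and 3.68. With paraquat asp-14 read 9.76, 9.78 and 9.90, below every wild type array, with a difference of -1.01 that did not pass the test (adjusted p = 0.196, and 0.0128 when the model held only those groups). The gene is read by a probe set of a kind that may bind more than 1 transcript, which holds for 9 of the 26 genes, namely asp-4, asp-5, asp-6, asp-13, asp-14, cpl-1, cpr-3, cpr-5 and cpz-1.

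asp-13 (F28A12.4, chromosome V) read 11.13, 10.74, 11.46 and 10.92 in wild type, 12.02, 11.96 and 12.01 in nuo-6, and 10.58, 10.45 and 10.16 with paraquat. Each of the latter groups was clear of wild type, nuo-6 above and paraquat below. It rose in nuo-6 by 0.94 (SE 0.19, adjusted p = 0.00136) and fell by 0.67 with paraquat (adjusted p = 0.00929, and 0.0554 without paraquat replicate 3). In isp-1 the values of 11.90, 10.95 and 11.65 overlapped wild type. The difference there was 0.44 (adjusted p = 0.112), and it passed the test at 0.71 (adjusted p = 0.0113) without isp-1 replicate 2 and at 0.57 (adjusted p = 0.0395) without wild type replicate 3. On the ced-4 background asp-13 was not raised by nuo-6. The ced-4 arrays read 11.27, 11.34 and 11.35 and the nuo-6 ced-4 arrays 10.84, 10.63 and 10.95. The difference of -0.51 between them did not pass the test (adjusted p = 0.0963), and the interaction was -1.45 (adjusted p = 0.00485), a call kept in all 21 alternatives.

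asp-12 (F21F8.4, chromosome V) had no call, and 1 array decided its comparisons with wild type. Wild type read 5.29, 4.41, 9.85 and 4.80, with replicate 3 far above the rest, while isp-1 read 4.60, 3.84 and 3.37 and nuo-6 read 4.63, 3.35 and 4.54. The differences from wild type were -2.15 in isp-1 (adjusted p = 0.0746) and -1.91 in nuo-6 (adjusted p = 0.0898). Without wild type replicate 3 they were -0.90 (adjusted p = 0.0584) and -0.66 (adjusted p = 0.135), and without replicate 2, which leaves replicate 3 in, both passed the test at -2.71 and -2.47. In ced-4 the values of 5.98, 6.09 and 6.61 differed from wild type by 0.14 with all arrays and by 1.39 (adjusted p = 0.00823) without wild type replicate 3, and the interaction of nuo-6 with ced-4 was -0.33 and -1.58 (adjusted p = 0.0406). The nuo-6 ced-4 arrays, at 3.92, 3.85 and 4.19, lay below every ced-4 array, a difference of -2.24 with an adjusted p of 0.0972 in the fit of all groups and of 0.000136 when the model held only those groups.

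**Figure D2:**
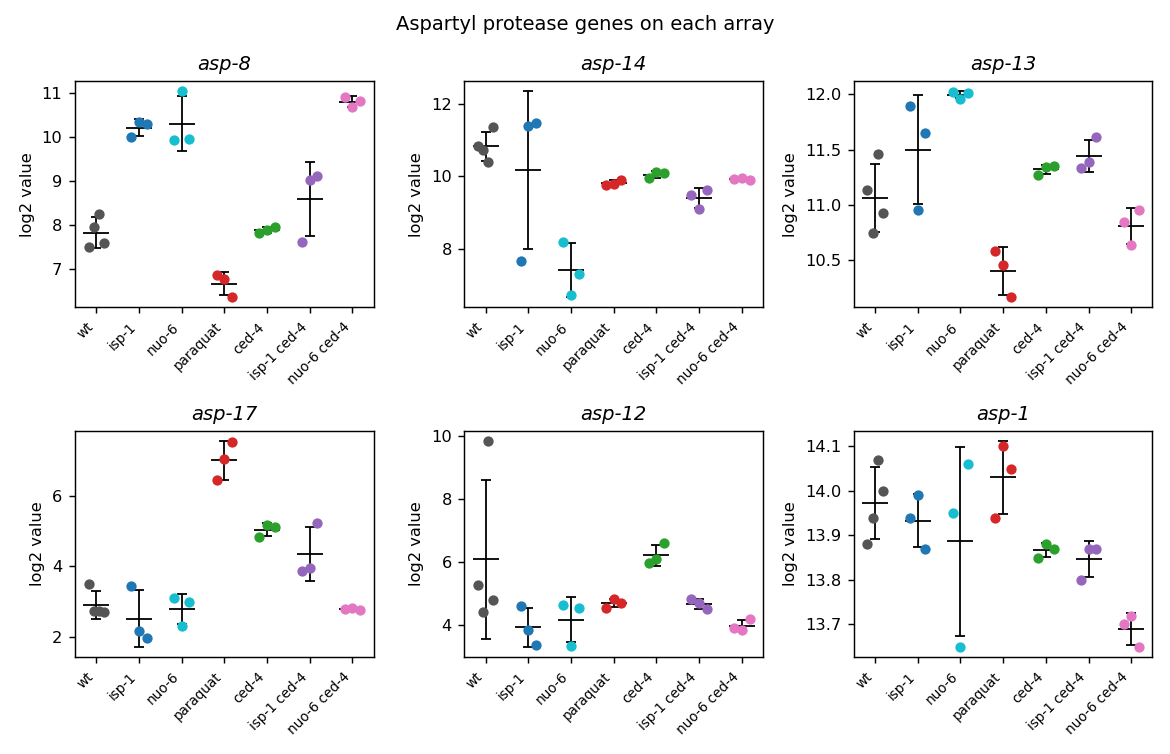
Log2 values of asp-8, asp-14, asp-13, asp-17, asp-12 and asp-1 on each array (points) in the 7 groups, with the mean (horizontal bar) and SD (error bar); each panel has its own vertical range. The single isp-1 array at 7.67 for asp-14 and the single wild type array at 9.85 for asp-12 stand apart from their groups.

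The other tested aspartyl genes were bright on every array and varied little. asp-1, an intestinal aspartyl protease, lay between 13.65 and 14.10 on all 22 arrays, and its differences ran from -0.20 to 0.06. After cyclic loess its difference with paraquat was 0.25 (adjusted p = 0.0425). asp-3 and asp-4, lysosomal aspartyl proteases known in the worm for their part in the necrotic death of neurons, lay between 12.36 and 13.11 and between 10.94 and 11.87. asp-3 fell by 0.54 in nuo-6 ced-4 relative to nuo-6 (adjusted p = 0.00654). asp-4 rose by 0.59 in nuo-6 (adjusted p = 0.00596) and its second probe set by 0.47 (adjusted p = 0.0133). With paraquat the probe sets of asp-4 disagreed, at -0.00 and -0.38, the latter with an adjusted p of 0.0316. asp-5 fell by 0.47 with paraquat (adjusted p = 0.0056, and 0.075 when the model held only those groups). Its second probe set moved less, with means of 12.15 in wild type and 11.97 with paraquat. Those arrays overlapped, at 11.96 to 12.46 and 11.88 to 12.12. asp-6 had no call by its brighter probe set, with 0.30 in nuo-6 (adjusted p = 0.126) and 0.44 (adjusted p = 0.0131) without wild type replicate 3, and by its second one it was higher by 0.50 in isp-1 ced-4 than in ced-4 (adjusted p = 0.00687).

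Among the cysteine protease genes, the cathepsin B-like gene cpr-8 (W07B8.1, chromosome V) had the most calls of any member, in 7 of 8 pairwise comparisons. It read 7.65, 7.97, 7.36 and 8.21 in wild type, 9.24, 9.30 and 8.65 in isp-1, and 8.92, 9.28 and 9.13 in nuo-6. Both mutants lay wholly above wild type, by 1.26 (SE 0.23, adjusted p = 0.001) and 1.31 (adjusted p = 0.000439). With paraquat it read 6.16, 6.12 and 5.53, wholly below wild type, a fall of 1.86 (3.64-fold, adjusted p = 6.22e-06). These 3 calls held in every alternative that was tried.

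The ced-4 arrays of cpr-8 read 6.42, 7.19 and 6.94, also below every wild type array, a fall of 0.95 (adjusted p = 0.00844) that was -0.74 (adjusted p = 0.066) without ced-4 replicate 1. In isp-1 ced-4 the values were 8.95, 8.81 and 8.45 and in nuo-6 ced-4 8.37, 8.58 and 8.36. Both double mutants lay above every ced-4 array, by 1.89 (adjusted p = 9.65e-06) and 1.59 (adjusted p = 0.000213). The interactions were 0.62 (adjusted p = 0.204) and 0.28 (adjusted p = 0.646) and did not pass the test. Against nuo-6 the double mutant was lower by 0.67 (adjusted p = 0.0474), a call lost in 8 of 14 alternatives.

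cpr-5 (W07B8.5, chromosome V) is the next annotated gene to cpr-8, with 0 genes between them. It read 11.43, 11.96, 12.10 and 12.07 in wild type and 10.76, 11.24 and 11.1 with paraquat, with no overlap and a fall of 0.86 (SE 0.18, adjusted p = 0.000846). In isp-1 and nuo-6, where cpr-8 rose, its differences were 0.07 and 0.10. In ced-4 it read 11.35, 11.13 and 11.27, below every wild type array, a fall of 0.64 (adjusted p = 0.0213). It was higher by 0.55 in isp-1 ced-4 than in ced-4 (adjusted p = 0.0228) and lower by 0.61 in nuo-6 ced-4 than in nuo-6 (adjusted p = 0.0229). These last 3 calls were each lost in at least 4 alternatives, for example at -0.57 (adjusted p = 0.0576) in ced-4 without wild type replicate 3.

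cpr-3 (T10H4.12, chromosome V) read 6.64, 6.19, 5.20 and 5.89 in wild type, 8.80, 7.35 and 6.92 in isp-1, and 8.49, 7.28 and 8.13 in nuo-6. Both mutants lay above all wild type arrays. The rise was 1.71 (SE 0.37, adjusted p = 0.00362) in isp-1, with 0.0852 when the model held only those groups, and 1.99 (adjusted p = 0.000746) in nuo-6. The second probe set gave 1.41 and 1.84. By that one the isp-1 arrays, at 6.54 to 8.65, overlapped wild type, at 5.13 to 6.85. With paraquat cpr-3 read 6.64, 6.30 and 6.06, within the range of wild type. In ced-4 it read 7.10, 7.04 and 6.86 and in nuo-6 ced-4 7.41, 7.37 and 7.36, a difference of 0.38 (adjusted p = 0.57). isp-1 ced-4, at 8.39, 8.03 and 7.97, was above ced-4 by 1.13 (adjusted p = 0.0247), and by 0.91 (adjusted p = 0.0683) after cyclic loess between arrays.

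cpr-1 (C52E4.1, chromosome V), a cysteine protease gene of the gut, went in the opposite direction to cpr-3 in isp-1. It read 11.16, 11.65, 13.31 and 11.46 in wild type and 11.12, 10.93 and 9.39 in isp-1. The groups did not overlap, but 1 array of each stood apart, and the fall of 1.41 (SE 0.43, adjusted p = 0.0251) was -0.94 (adjusted p = 0.0595) without wild type replicate 3 and -0.87 (adjusted p = 0.167) without isp-1 replicate 3. In nuo-6 the values of 11, 11.86 and 10.98 overlapped wild type.

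The ced-4 arrays of cpr-1 read 12.78, 12.80 and 12.79, and the double mutants read 11.05, 10.82 and 11.43 (isp-1 ced-4) and 11.31, 11.50 and 11.37 (nuo-6 ced-4), wholly below them. The fall in isp-1 ced-4 relative to ced-4 was 1.69 (adjusted p = 0.00546) and held in every alternative. That in nuo-6 ced-4 was 1.40 (adjusted p = 0.0444) and was lost in 9 of 14. With paraquat cpr-1 read 12.63, 12.78 and 12.14. Against wild type, the differences of 0.62 with paraquat and 0.89 in ced-4 did not pass the test, while without wild type replicate 3 they were 1.09 (adjusted p = 0.0171) and 1.37 (adjusted p = 0.013).

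cpr-4 (F44C4.3, chromosome V) encodes a secreted cathepsin B homologue that has been linked in worms to effects of irradiated on unirradiated tissue. It read 12.72, 13.01 and 12.78 in nuo-6 and 11.78, 11.66 and 11.77 in nuo-6 ced-4, with no overlap and a fall of 1.1 (SE 0.36, adjusted p = 0.0278) that was lost in 5 of 14 alternatives. Wild type read 11.41, 11.81, 13.08 and 11.82, with replicate 3 at the nuo-6 level. The difference between nuo-6 and wild type was 0.81 (adjusted p = 0.0732), and 1.16 (adjusted p = 0.00487) without wild type replicate 3. The isp-1 values of 12.89, 11.89 and 11.20 were spread over nearly the whole range of the gene. Between isp-1 ced-4 and isp-1 it differed by 0.77 (adjusted p = 0.109), and by 1.22 (adjusted p = 0.0136) without isp-1 replicate 1. The interaction of nuo-6 with ced-4 was -1.31 (adjusted p = 0.0967), and -1.66 (adjusted p = 0.0174) without wild type replicate 3.

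**Figure D3:**
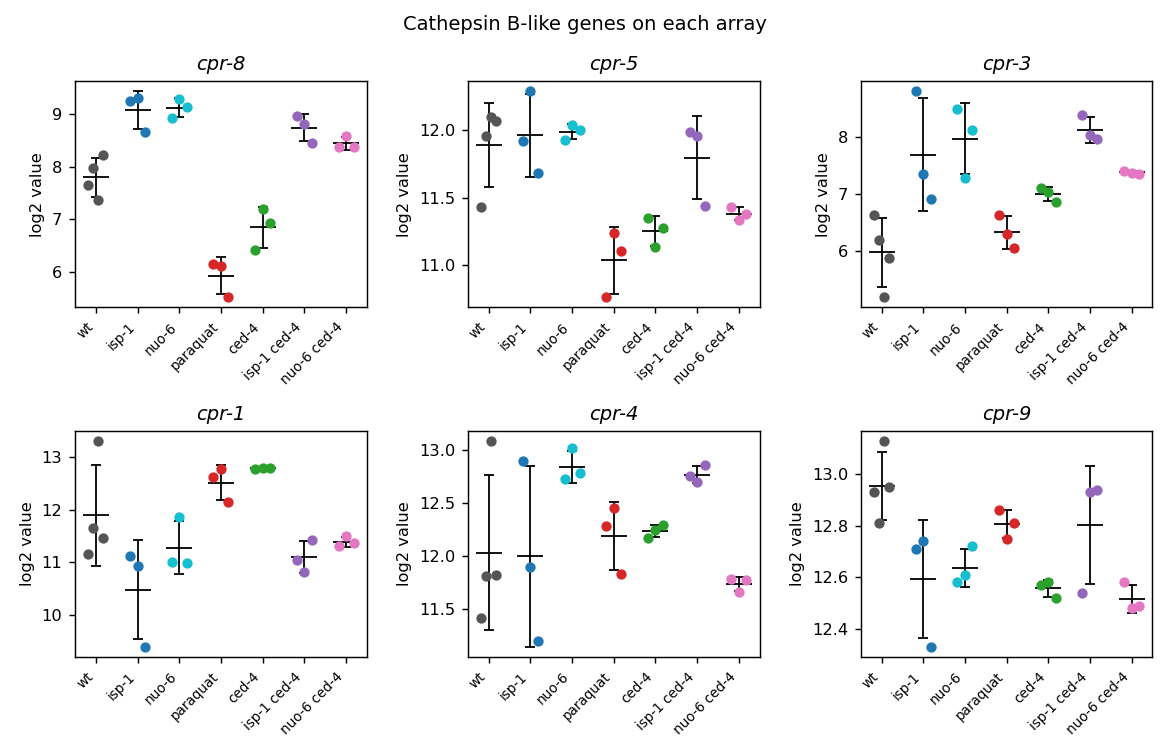
Log2 values of the cathepsin B-like genes cpr-8, cpr-5, cpr-3, cpr-1, cpr-4 and cpr-9 on each array (points) in the 7 groups, with the mean (horizontal bar) and SD (error bar); each panel has its own vertical range. For cpr-8 the paraquat arrays lie between 5.53 and 6.16 and the isp-1 and nuo-6 arrays between 8.65 and 9.30, on either side of wild type.

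The remaining cysteine protease genes moved by less than 1 log2 unit. cpr-9 fell by 0.36 in isp-1 (adjusted p = 0.0365), by 0.32 in nuo-6 (adjusted p = 0.0488) and by 0.40 in ced-4 (adjusted p = 0.0296), and each call was lost in 5 or more alternatives. cpr-6 fell by 0.44 in nuo-6 ced-4 relative to nuo-6 (adjusted p = 0.0342), a call lost in 7 of 14 alternatives. cpl-1, a cathepsin L needed in the worm for embryonic development and yolk processing, lay between 12.27 and 12.94 on all arrays.

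For cpl-1 the nuo-6 ced-4 arrays, at 12.31, 12.27 and 12.30, lay below the arrays of both ced-4 and nuo-6. The fall was 0.54 against nuo-6 (SE 0.10, adjusted p = 0.000917), 0.34 against ced-4 (adjusted p = 0.0298), and the interaction of nuo-6 with ced-4 was -0.51 (adjusted p = 0.0285). The first call was lost with the mean of the probe sets (-0.44, adjusted p = 0.0643), and the others in 7 of 14 and 10 of 21 alternatives. The dim second probe set of cpl-1 gave another picture, higher by 0.79 in isp-1 ced-4 than in ced-4 (adjusted p = 0.0202), where the bright one differed by 0.03. The cathepsin Z gene cpz-1, which acts in embryos and in molting, fell by 0.43 with paraquat (adjusted p = 0.0362), a call lost in 7 of 15 alternatives. cpz-2 had no call in the 8 comparisons. In isp-1 ced-4 relative to ced-4 its difference of -0.47 had an adjusted p of 0.051, and it passed the test in 7 alternatives, among them cyclic loess at -0.66.

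Because asp-8 and cpr-8 differed from wild type in opposite directions in the respiratory chain mutants and with paraquat, the mutants were also set directly against paraquat in the same model, a comparison chosen after their values were seen. In isp-1 against paraquat 6 protease genes were higher and 2 lower, where 35.3% of all tested genes were called (17.4% higher, 17.9% lower). In nuo-6 against paraquat 9 were higher and 3 lower, where 45.1% were called (21.3% higher, 23.8% lower). After cyclic loess 8 were higher and 4 lower. Among the 9 were asp-5 and cpz-2, whose calls held in only 6 and 9 of 14 alternatives. asp-14 was lower in nuo-6 than with paraquat by 2.40 (adjusted p = 0.00703). asp-8 was higher by 3.55 and 3.64 and cpr-8 by 3.13 and 3.17 in isp-1 and nuo-6. asp-13 was higher by 1.1 and 1.60, cpr-5 by 0.93 and 0.96 and cpr-3 by 1.36 and 1.63. Without isp-1 replicate 1 the difference of cpr-3 between isp-1 and paraquat was 0.80 (adjusted p = 0.0959). cpr-1 was lower by 4.1-fold and 2.36-fold, the last a call lost in 6 of 14 alternatives. asp-17 was called lower in both, and no fold is given because its isp-1 and nuo-6 values lie below the table median. Without isp-1 replicate 1, isp-1 was also called higher than paraquat for asp-14 (0.35 with all arrays, 1.60 without it, adjusted p = 0.00219) and cpr-6 (0.33 and 0.49, adjusted p = 0.0236).

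Between nuo-6 and isp-1 limma called 0 of the 20 protease genes, and 4 had an unadjusted p under 0.05. Over all tested genes 0.0104% were called in that comparison, which is 1 gene. Without isp-1 replicate 1, asp-14 (-4.0) and cpr-4 (1.30, adjusted p = 0.0288) passed the test.

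On the ced-4 background, isp-1 ced-4 relative to ced-4 gave higher cpr-3, cpr-5 and cpr-8 and lower cpr-1, 4 of 20 genes where 52.1% of all tested genes were called (29.5% higher, 22.6% lower). None of the 10 aspartyl genes was among them, and 2 of these had an unadjusted p under 0.05. Without isp-1 ced-4 replicate 1, asp-4 (0.40, adjusted p = 0.0347) and asp-8 (1.19, adjusted p = 0.00197) passed the test, while cpr-3 and cpr-5 did not. With all groups out of the model but the compared ones, 10 protease genes were called, among them asp-3, asp-6, asp-12 and asp-14. The share of all tested genes was not computed for that fit. After cyclic loess 1 protease gene was higher and 2 were lower. In nuo-6 ced-4 relative to ced-4, asp-8 and cpr-8 rose and asp-17, cpl-1 and cpr-1 fell, 5 of 20 against 18.2% (9.51% higher, 8.69% lower). When only the compared groups were in the model, 12 protease genes were called. The 18.2% is not the share of all tested genes in that fit, which was not computed.

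Of the double mutants against the respiratory chain mutants, isp-1 ced-4 had asp-17 higher and asp-8 lower than isp-1, 2 of 20 where 33.5% of all tested genes were called (15.5% higher, 18% lower). Without isp-1 replicate 1, 6 protease genes were called, and the share of all tested genes was not computed for that fit. Those 6 included cpr-3 (0.44 with all arrays, 0.99 without that array, adjusted p = 0.0425) and cpz-1 (-0.30 and -0.49, adjusted p = 0.0345). In nuo-6 ced-4 relative to nuo-6, asp-14 rose while asp-3, asp-13, cpl-1, cpr-4, cpr-5, cpr-6 and cpr-8 fell, 8 of 20 against 28.8% (12.2% higher, 16.6% lower). Cyclic loess and median centring each left 1 higher and 4 lower. The median difference there was -0.25, and -0.07 for all tested genes.

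The interaction of isp-1 with ced-4 was called for asp-8 (-1.68) and cpr-9 (0.61, adjusted p = 0.0227, a call lost in 5 of 21 alternatives), 2 of 20 genes where 18.4% of all tested genes were called (7.74% higher, 10.6% lower). That of nuo-6 with ced-4 was called for asp-13, asp-14, asp-17 and cpl-1, 4 of 20 against 11.4% (6.49% higher, 4.9% lower). For the cpr-3 transcript the interaction of nuo-6 with ced-4 was -1.61 (adjusted p = 0.0671). It passed the test in some alternatives, for example at -1.58 (adjusted p = 0.049) with the replicate block. For asp-14 the interaction of isp-1 with ced-4 was 0.01 with all arrays and -1.24 (adjusted p = 0.0477) without isp-1 replicate 1.

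Most of the genes lie on chromosome V, with 20 of the 26, and 4 lie on X (asp-3, asp-4, asp-14 and cpr-6). Of the direct neighbours in the RefSeq annotation, cpr-5 and cpr-8 were called the same way in 4 comparisons. These were lower with paraquat, lower in ced-4, lower in nuo-6 ced-4 than in nuo-6, and higher in isp-1 ced-4 than in ced-4. Only the calls with paraquat held for both genes in every alternative. In isp-1, nuo-6, and nuo-6 ced-4 relative to ced-4, cpr-8 was called and cpr-5 was not. How often other neighbouring genes on the array were called alike was not computed. asp-6, asp-12, asp-5 and the pseudogene asp-11 follow one another with 0 genes between them, and by the brightest probe sets the 8 comparisons called asp-5 with paraquat and none of the others. asp-7, the direct neighbour of asp-8, lay between 1.07 and 1.71 on all arrays, including those of isp-1 and nuo-6 where asp-8 rose. The 6 genes below the filter, asp-7, asp-9, asp-11, asp-15, asp-19 and cpr-2, had values between 1.07 and 3.27. Levels of different probe sets are not compared.

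Protease inhibitors, the calpains and other genes of the lysosome were read from lists drawn up from general knowledge. The inhibitor cpi-1, a cystatin that blocks cysteine proteases, rose by 0.83 in nuo-6 (adjusted p = 0.00656) and fell by 0.92 in ced-4 (adjusted p = 0.00693). It was higher in both double mutants than in ced-4, by 1.14 (adjusted p = 0.000573) and 0.97 (adjusted p = 0.00706). The other cystatin, cpi-2, had no call, with differences of 0.22 in isp-1, 0.28 in nuo-6 and 0.05 with paraquat. Among 6 tested calpains, which are cytosolic cysteine proteases driven by calcium, clp-3 fell by 0.79 in isp-1 (adjusted p = 0.0122), by 0.65 in nuo-6 (adjusted p = 0.0241) and by 1.59 with paraquat (adjusted p = 1.15e-05).

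Of 19 tested V-ATPase subunits, the pump that acidifies the lysosome, 8 fell and 2 rose with paraquat (52.6% called, against 42.1% of all tested genes), with a median of -0.25 against 0.10 for all tested genes. vha-6, a subunit of the intestine, fell by 0.84 (adjusted p = 0.000295), vha-14 by 0.79 (adjusted p = 0.000159) and vha-10 by 0.53 (adjusted p = 0.000506). In isp-1 the median of the subunits was -0.04, and in nuo-6 vha-5 rose by 0.67 (adjusted p = 0.00286). In ced-4, 4 fell and 0 rose (21.1% against 14.9%). In nuo-6 ced-4 relative to nuo-6, 8 fell (42.1% against 28.8%), or 4 after cyclic loess, among them vha-13 by 0.69 (adjusted p = 0.000477).

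Of 19 tested genes of the lysosome membrane and its biogenesis, 7 rose and 2 fell with paraquat, or 5 and 4 after cyclic loess, a share of 47.4% near the 42.1% of all tested genes, with a median of 0.36 against 0.10 for all tested genes. The lipid kinase gene ppk-3 rose by 0.99 (adjusted p = 2.07e-06) and cup-5, which encodes the worm mucolipin channel, by 0.74 (adjusted p = 0.000523). In isp-1 ced-4, 10 were higher and 1 lower than in ced-4, or 6 and 1 after cyclic loess, a share of 57.9% near the 52.1% of all tested genes. Against isp-1, 9 were higher (47.4% against 33.5%). glo-3, needed for the lysosome-related granules of the gut, was higher by 1.07 in isp-1 ced-4 than in ced-4 (adjusted p = 0.00261) and by 0.96 in nuo-6 than in wild type (adjusted p = 0.00636).

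Of 23 other lysosomal hydrolases, 6 rose and 2 fell in isp-1, or 4 and 2 after cyclic loess, and 6 rose and 6 fell in nuo-6. With paraquat 2 rose and 6 fell. The shares called were 34.8%, 52.2% and 34.8%, against 23.3%, 33.9% and 42.1% of all tested genes. The lipase gene lipl-5 rose by 1.00 in isp-1 (adjusted p = 0.00553) and 1.18 in nuo-6 (adjusted p = 0.00107). The gene ctsa-4.2, of the cathepsin A-like serine carboxypeptidases, rose by 1.03 in isp-1 (adjusted p = 0.0018) and fell by 0.80 with paraquat (adjusted p = 0.00381). The lysosomal nuclease gene nuc-1 fell by 0.78 in ced-4 (adjusted p = 0.00672) and by 1.34 in isp-1 ced-4 relative to isp-1 (adjusted p = 0.000189).

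**Figure D4:**
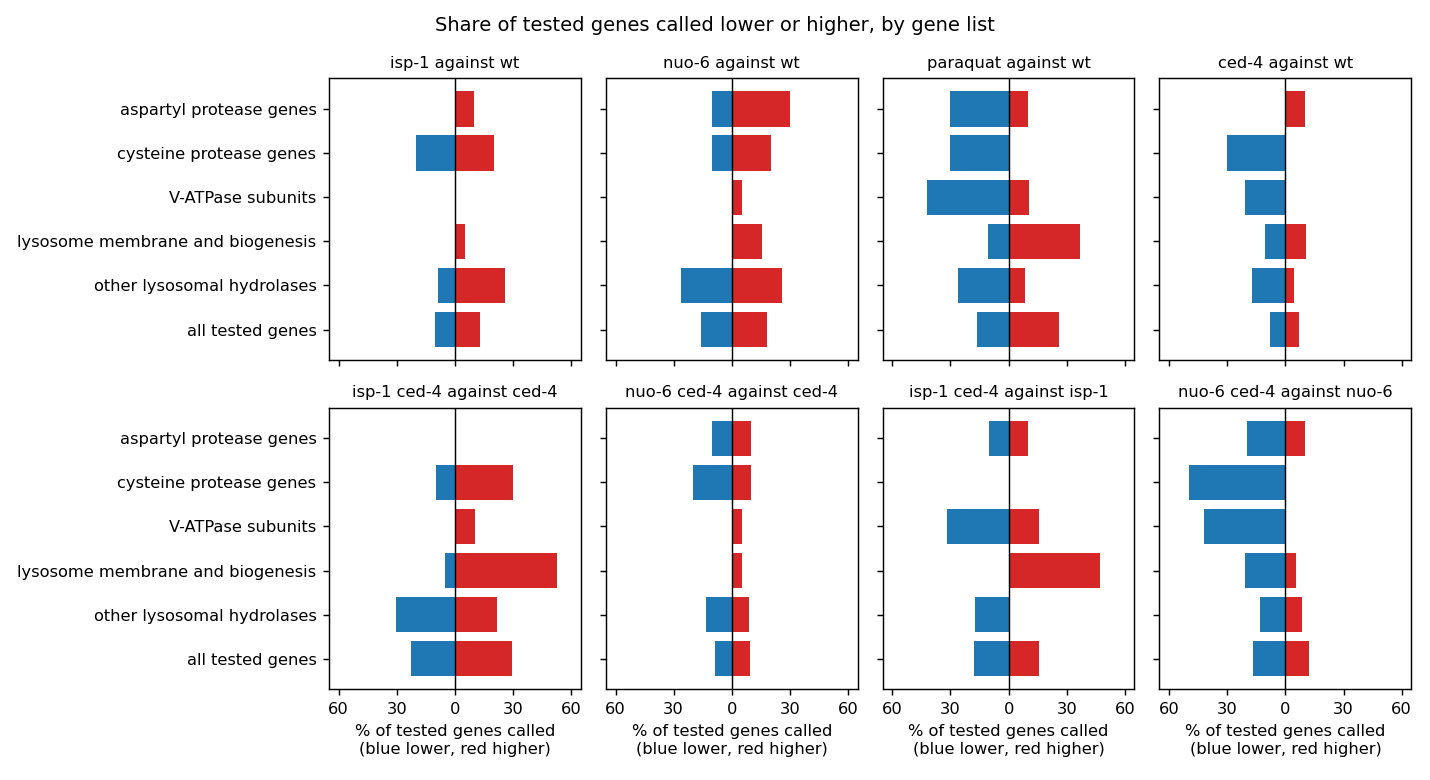
Percent of tested genes called higher (red, right of zero) or lower (blue, left of zero) in 8 comparisons (panels) for the 10 aspartyl and 10 cysteine protease genes, 3 lists of other lysosomal genes and all tested genes (rows). With paraquat the bars of both protease families and of the V-ATPase subunits point mainly to lower, and that of the lysosome membrane genes mainly to higher.

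Markers of the tissues in a whole worm moved in the same comparisons, and their part in the protease results was not tested. Of 21 tested intestine markers, 6 fell and 0 rose with paraquat (28.6% called, against 42.1% of all tested genes), and their mean on an array ran from 9.17 to 9.37, against 9.51 to 9.77 in wild type. The intestine marker vha-6 is also counted among the V-ATPase subunits. In isp-1, nuo-6 and ced-4 the intestine means ran from 9.51 to 9.90, from 9.68 to 9.96 and from 9.69 to 9.76. Of 18 tested sperm markers, 17 fell and 1 rose with paraquat, where 16.2% of all tested genes fell, and 16 fell in isp-1 ced-4 relative to ced-4, where 22.6% did. Their mean ran from 6.78 to 7.15 with paraquat and from 5.68 to 7.73 in isp-1 ced-4, against 8.87 to 9.55 in wild type and 8.77 to 8.82 in ced-4.

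Of 20 oocyte and early embryo markers, all 20 rose with paraquat and 18 in isp-1 ced-4 relative to ced-4, where 25.9% and 29.5% of all tested genes rose, with means from 12.02 to 12.09 with paraquat and from 10.95 to 11.47 in wild type. Of 17 tested hypodermis and molting markers, 11 rose and 1 fell in ced-4 (70.6% called, against 14.9% of all tested genes), where asp-17 rose and cpr-5 and cpr-8 fell, with means from 8.09 to 8.13 against 5.70 to 6.21 in wild type. In nuo-6 ced-4, where asp-17 was at the wild type level, these means ran from 8.16 to 8.24, and in isp-1 ced-4 from 5.90 to 6.13. With paraquat, where asp-17 was highest, they ran from 6.30 to 6.63. In isp-1 and nuo-6 against wild type, where asp-8, cpr-3 and cpr-8 rose, 1 of the 17 rose and 0 fell in each (5.88% called, against 23.3% and 33.9%). There 1 sperm marker rose and 7 fell in each (44.4% called), and 5 and 7 oocyte markers rose (25% and 35%, near the shares of all tested genes). In nuo-6 ced-4 relative to nuo-6, where asp-14 rose and 7 protease genes fell, 12 hypodermis markers rose and 2 fell (82.4% called, against 28.8%), and 13 oocyte markers fell (65%), or 8 after cyclic loess. The below-filter markers were inx-16 of the intestine, mlt-10 of the hypodermis, and try-5, spe-38, fer-1 and spe-9 of sperm.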

How the data were processed

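The deposited log2 values of the authors' table were used. GCRMA is named in the submitters' processing notes. The sources used here give neither its version and settings nor whether the 22 arrays were normalized jointly. The values run from 0.926 to 15.25, from which log base 2 was inferred. GCRMA corrects background by probe sequence, so differences between low values are uncertain, and its quantile step takes a joint shift of most transcripts out of the data. Precision is limited by the number of arrays, since arrays have no read depth.

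Of 22625 probe sets 77 controls were left out, and the 12639 that reached the table median (3.68) on at least 3 arrays were tested. Symbols came from the platform annotation, updated by entrez ID for 20701 of the 20766 probe sets with 1 symbol. The probe set with the highest mean represented a gene, which gave 9647 tested genes. limma 3.58.1 (lmFit, eBayes; R 4.3.3) fitted a mean for each of the 7 groups over all arrays, two-sided, with Benjamini-Hochberg adjustment over all tested probe sets within a comparison and calls at 0.05. Every member may be named. Values per array are given mainly for members called with a difference of at least 1, and up to 4 members of each list with the smallest p may be named per comparison; asp-12, cpi-2 and further members are given beyond that rule. The members and lists were chosen with earlier results of these data known, and the contrasts of nuo-6 with isp-1 and of both with paraquat were added after values were seen. The steps were tested on simulated data. Alternatives were a stricter filter, no filter, cyclic loess, median centring, a replicate block, only the compared groups, trend and robust eBayes, the mean of a gene's probe sets, and leaving out each array. No coordinates or sequences are given, since the sources used here name no genome build and no sequence was used.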

Additional observations from a re-analysis of the deposited data

Results flagged for a closer look

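Among the 20 tested genes, 3 had a wild type array whose gap to the next array, as a share of the range of its group, exceeded Dixon's critical value, and chance marks about 1 in 20 such groups. asp-12 read 9.85 on wild type replicate 3, with the next array at 5.29. asp-6 read 13.75 on the same array, with the next at 13.22. asp-17 read 3.51 on wild type replicate 1, with the next at 2.73, all of them below the table median.

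The effect of a respiratory chain mutation differed between the wild type and ced-4 backgrounds, by limma's test of the interaction, for 6 results. For isp-1 these were asp-8 at -1.68 (adjusted p = 0.0179) and cpr-9 at 0.61 (adjusted p = 0.0227). They are 2 of 20 genes, or 10%, where 18.4% of all tested genes were called. For nuo-6 these were asp-14 at 3.29 (adjusted p = 0.0252), asp-13 at -1.45 (adjusted p = 0.00485), asp-17 at -2.13 (adjusted p = 0.0184) and cpl-1 at -0.51 (adjusted p = 0.0285). They are 4 of 20 genes, or 20%, where 11.4% of all tested genes were called. For asp-17 the wild type, nuo-6 and nuo-6 ced-4 arrays lay below the table median, so the size of its interaction is uncertain. The calls of cpr-9, asp-14 and cpl-1 were lost in 5, 8 and 10 of 21 alternatives.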

How the results depend on the processing

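Of 48 calls over the 8 pairwise comparisons and both interactions, 25 held in every alternative and 23 were lost in at least 1. No called difference changed its sign. An uncalled one, asp-14 in the interaction of isp-1 with ced-4, went from 0.01 to a call at -1.24 without isp-1 replicate 1 and ranged up to 0.65 without others. With only the compared groups in the model, the number of protease genes called was 2 in isp-1 (5 with all groups), 1 in ced-4 (4), 10 for isp-1 ced-4 relative to ced-4 (4), 12 in nuo-6 ced-4 relative to ced-4 (5), 1 in isp-1 ced-4 relative to isp-1 (2) and 1 in the interaction of isp-1 (2). The share of all tested genes called was not computed for these fits or for those that left out an array. Trend and robust eBayes called 7 in isp-1 ced-4 relative to ced-4. Cyclic loess and median centring each called 5 of the 8 in nuo-6 ced-4 relative to nuo-6; the median of all tested genes moved from -0.068 to 0.034 there under loess, from 0.102 to -0.009 with paraquat, and from 0.135 to -0.015 in isp-1 ced-4 relative to ced-4. Leaving out each array in turn gave 3 to 6 calls in isp-1, 6 to 8 in nuo-6, 6 to 8 with paraquat, 2 to 5 in ced-4, between 2 and 5 for isp-1 ced-4 relative to ced-4, 3 in each case in nuo-6 ced-4 relative to ced-4, 2 to 6 in isp-1 ced-4 relative to isp-1, 4 to 7 in nuo-6 ced-4 relative to nuo-6, 1 to 3 in the interaction of isp-1 and 2 to 6 in that of nuo-6. The replicate numbers were not taken to pair the arrays. Deviations from group means of arrays with the same number correlated between -0.246 and 0.249. Arrays with different numbers were not set beside them, so these values cannot decide whether the arrays were paired. With the replicate block, 2 genes were called in ced-4 in place of 4. For the other counts above the cause was not tested. Low signal limits asp-17, and the 6 genes below the filter were not tested.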
